A study of Rattus norvegicus with 12 samples.

Results

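The metallothionein and metal response genes described here were Mt1a, Mt2A, Mt3, Slc30a1, Fth1 and Tfrc, chosen by gene name as members of the metal handling pathways. They comprised 6 genes with 9 probes, of 35153 genes or unnamed transcripts with 40998 probes on the array. All 9 probes were well above background on all 12 arrays, and all 6 genes entered the statistical model of 27042 genes. The series follows the striatum, the input nucleus of the basal ganglia, after rats had inhaled carbon monoxide (CO), a gas that displaces oxygen from hemoglobin, or a mixture low in oxygen. Each array carried RNA from both striata of 1 male Sprague-Dawley rat, anesthetized with pentobarbital and perfused with cold saline. Exposure lasted 40 min. For 1000 ppm CO, rats were taken 0, 2, 6 and 12 h later, and the same times were used for 3000 ppm CO. For 5% O2 the times were 0, 2 and 6 h, and for air 0 h alone. There was 1 rat for each condition, so a single level has no replicate error.

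Metallothioneins are small cysteine-rich proteins that bind zinc and copper. Transcription of Mt1a and Mt2A is induced when zinc activates the factor MTF1, which binds metal response elements in their promoters, and glucocorticoids and oxidants induce them as well. Mt3 is a form found mostly in brain and, as far as is known, responds little to zinc. Slc30a1 (ZnT1) is the zinc exporter of the plasma membrane and another known MTF1 target. Fth1 is the heavy chain of ferritin, which oxidizes and stores iron, and Tfrc is the receptor that takes up iron bound to transferrin. The iron regulatory proteins govern both, blocking translation of Fth1 mRNA and stabilizing Tfrc mRNA when iron is short, so that Fth1 mRNA need not follow its protein.

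The promoters of the 3 metallothionein genes are shown for their matches to the sequence through which Mt1a and Mt2A are known to respond to metal. The 250 bases before the start of each gene were taken from RefSeq (build GRCr8), which held 5 of the 6 members and no entry matched to Fth1. Capitals mark every match, on either strand, to the metal response element core TGCACNC or its variant TGCGCNC, where overlapping matches run together. The Mt1a window lies at chr19:10832976-10833225, the Mt2A window at chr19:10838709-10838958 and the Mt3 window at chr19:10856081-10856330, all on the minus strand.
Mt1a: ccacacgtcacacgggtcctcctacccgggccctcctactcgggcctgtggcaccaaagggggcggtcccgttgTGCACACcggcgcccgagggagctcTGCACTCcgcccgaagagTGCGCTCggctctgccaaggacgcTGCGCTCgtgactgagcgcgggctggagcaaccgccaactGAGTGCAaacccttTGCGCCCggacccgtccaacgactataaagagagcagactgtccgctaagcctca
Mt2A: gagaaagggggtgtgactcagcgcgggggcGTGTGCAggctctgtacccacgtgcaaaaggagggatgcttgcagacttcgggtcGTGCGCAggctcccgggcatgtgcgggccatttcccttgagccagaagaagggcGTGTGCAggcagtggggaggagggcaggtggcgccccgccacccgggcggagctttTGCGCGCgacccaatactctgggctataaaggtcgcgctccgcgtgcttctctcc
Mt3: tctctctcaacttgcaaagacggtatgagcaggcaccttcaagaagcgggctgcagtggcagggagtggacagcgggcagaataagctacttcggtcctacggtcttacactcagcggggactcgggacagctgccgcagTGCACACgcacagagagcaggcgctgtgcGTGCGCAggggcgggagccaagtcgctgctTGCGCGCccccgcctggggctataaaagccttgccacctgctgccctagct
The Mt1a window held 6 matches, and 0.0269% of 33469 rat promoter windows of this length held as many. The Mt2A window held 4 matches, a number that 0.266% of windows reached, and the Mt3 window held 3, with 1.17% of windows at that number or above. The Slc30a1 window held 2 matches (4.90% of windows) and the Tfrc window 3 (1.17%), of which 2 overlap and 1 lies apart, while 20.6% of all windows held at least 1. These are letter matches and not measured binding sites.

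Levels are log2 processed intensity minus the 75th percentile of the same array, so a level of 0 is as bright as that percentile, and probes are compared across arrays and not with each other. The arrays lay on 3 slides. Slide 1 held the air array with the 0, 2 and 6 h arrays of 3000 ppm CO. Slide 2 held all 4 arrays of 1000 ppm CO and no other. Slide 3 held the 3 arrays of 5% O2 with the 12 h array of 3000 ppm CO. Hence 1000 ppm CO and slide 2 cannot be told apart, and differences between times within an exposure lie within a slide except for 3000 ppm CO at 12 h. Slides 2 and 3 were scanned on the same date and slide 1 on a different date. Air and 3000 ppm CO at 0, 2 and 6 h thus differ from the other arrays by scan date as well. Between 72.9% and 78.7% of spots were well above background and 0 were saturated. All 14 markers of medium spiny neurons, the principal striatal cell type, were well above background on all 12 arrays. All 14 lay below air in 2 arrays, however, with a median log2 difference of -3.19 in 5% O2 at 0 h and -0.86 in 1000 ppm CO at 6 h, while the medians of the other 9 exposed arrays lay between 0.08 and 1.04. In bulk RNA, fewer cells of a type and less RNA per cell cannot be told apart.

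Mt2A and Mt1a stood highest 2 h into recovery from 3000 ppm CO and from 5% O2. The Mt2A probe (A_42_P567267, chr19:11268171-11268230, minus strand, build rn4) read 2.80 in air. After 3000 ppm CO it read 3.01, 4.02, 3.91 and 3.43 at 0, 2, 6 and 12 h. After 5% O2 it read 3.26, 4.03 and 3.85 at 0, 2 and 6 h. After 1000 ppm CO the levels were 3.05, 3.32, 3.27 and 3.17, below every level of the other exposures from 2 h on. Air gave the lowest level of the 12 arrays.

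Set against air, Mt2A was 2.33-fold higher at 2 h and 2.15-fold higher at 6 h following 3000 ppm CO. Following 5% O2 it was 2.33-fold higher at 2 h and 2.06-fold at 6 h. These were the 4 of 66 pairs of a member and an exposed array that reached 2-fold, and quantile normalization also gave 4. With normexp background correction there were 3, since Mt2A at 6 h in 5% O2 stood at a log2 difference of 0.99. The deposited series table gave 6, adding Tfrc at 2 and 6 h in 1000 ppm CO, at 1.05 and 1.07. Of 29396 genes compared with air, the share at least 2-fold away in either direction was 5.71% and 6.68% in those arrays of 3000 ppm CO and 4.03% and 3.95% in those of 5% O2, against 1 of 6 members in each. The other exposed arrays had 0 of 6 members past 2-fold, beside the following shares of all genes. For 1000 ppm CO they were 9.15%, 10.4%, 8.85% and 7.62% at 0, 2, 6 and 12 h. For 3000 ppm CO they were 3.85% at 0 h and 7.75% at 12 h, and for 5% O2 at 0 h the share was 8.78%. Mt2A lay above air in 11 of 11 exposed arrays, by log2 differences from 0.21 to 1.22. It did so under each scaling tried, though by as little as 0.03 with normexp correction. Tfrc by its brightest probe also lay above air in 11 of 11. All 11 differences share the 1 air array, which had the highest median level of choroid plexus and ependyma markers. Their median log2 differences from air ran from -6.40 (1000 ppm CO, 0 h) to -0.48 (5% O2, 6 h). Where Mt2A passed 2-fold, these medians were -4.70 (2 h) and -4.16 (6 h) for 3000 ppm CO. For 5% O2 they were -0.58 (2 h) and -0.48 (6 h). The part of that tissue in the Mt2A folds was not tested. How many of all genes lie above air in every exposed array was not counted.

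The Mt1a probe (A_43_P13297, chr19:11261706-11261765, minus strand, build rn4) read 3.24 in air. For 3000 ppm CO it read 3.37, 4.13, 4.10 and 3.35 at 0, 2, 6 and 12 h. The 5% O2 levels were 3.57, 4.12 and 3.64 at 0, 2 and 6 h, and those of 1000 ppm CO 3.19, 3.48, 3.27 and 3.44. Mt1a was thus 1.86-fold and 1.82-fold above air at 2 and 6 h after 3000 ppm CO and 1.84-fold above air at 2 h after 5% O2. It was back at 1.08-fold of air by 12 h after 3000 ppm CO, on another slide, where Mt2A stood at 1.55-fold. At 6 h after 5% O2 the pair also parted, with Mt1a at 1.33-fold and Mt2A at 2.06-fold of air.

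**Figure D1:**
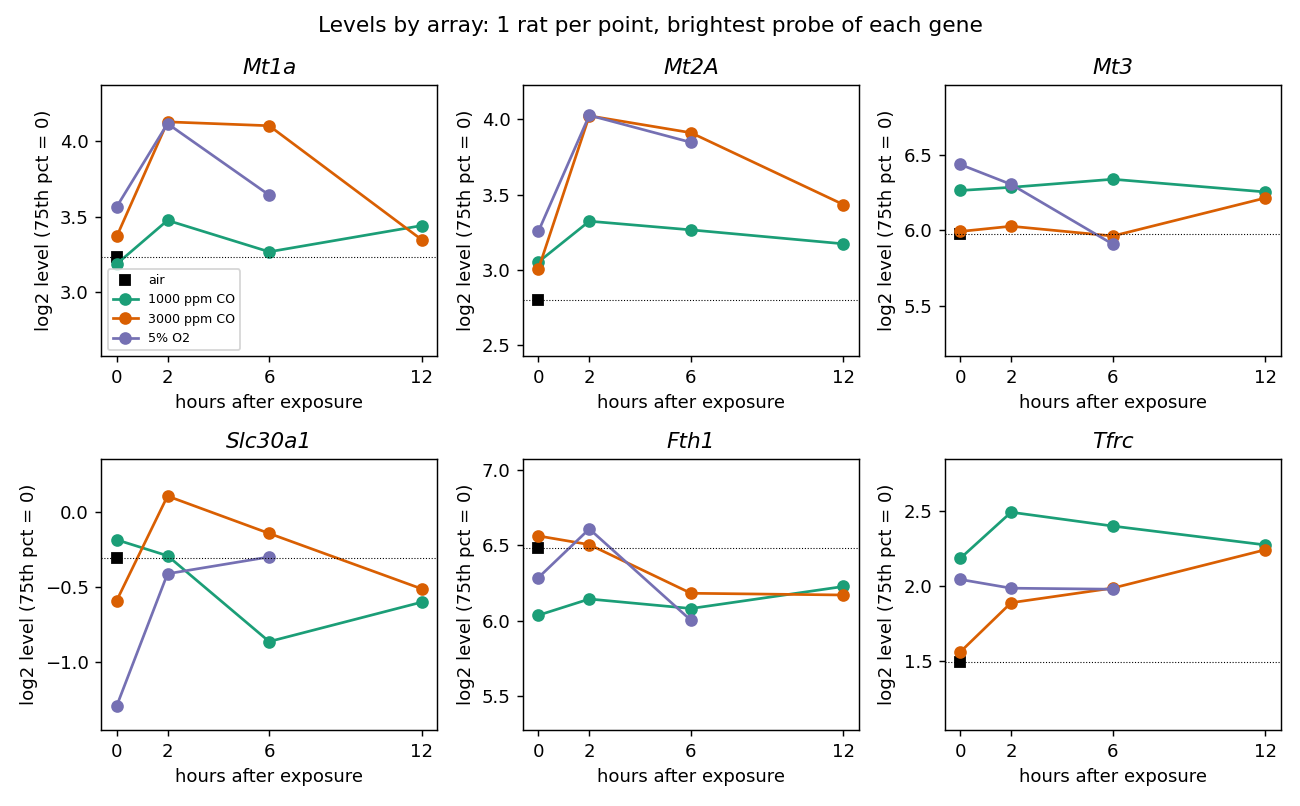
Log2 level of each of the 6 genes (vertical axis, 0 = 75th percentile of the array) against hours after exposure (horizontal axis), 1 rat per point, with lines joining the arrays of an exposure and a dotted line at the air level; all panels span the same number of log2 units. Mt2A reads 4.02 and 4.03 at 2 h after 3000 ppm CO and 5% O2 and 3.32 after 1000 ppm CO.

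Within an exposure, where the slide was the same, Mt2A at 2 h exceeded 0 h by 1.01 on the log2 scale after 3000 ppm CO, by 0.77 after 5% O2 and by 0.27 after 1000 ppm CO. For Mt1a the corresponding differences were 0.76, 0.55 and 0.29. Both genes thus read higher at 2 h than at 0 h after each of the 3 exposures. At 6 h the differences from 0 h were 0.90, 0.59 and 0.21 for Mt2A and 0.73, 0.08 and 0.08 for Mt1a, in the same order. With normexp background correction both genes read lower at 6 h than at 0 h after 1000 ppm CO. Their log2 differences from air there were 0.03 at 6 h and 0.17 at 0 h for Mt2A, and -0.38 and -0.11 for Mt1a. This was not particular to the 2 genes. In that 6 h array normexp also lowered the difference from air of Mt3 (0.36 to -0.14), Fth1 (-0.40 to -0.92) and Tfrc (0.90 to 0.46). It raised that of Slc30a1 (-0.56 to -0.27).

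In the additive limma model, which pools the 12 arrays and adjusts p-values over all 27042 genes, Mt2A was higher at 2 h than at 0 h by 0.68 ± 0.16 (log2 difference ± SE; adjusted p = 0.963) and at 6 h by 0.57 ± 0.16 (adjusted p = 1.00). Mt1a differed by 0.53 ± 0.20 at 2 h and 0.30 ± 0.20 at 6 h. Neither gene passed the threshold of an adjusted p of 0.05 in any time contrast. None of the 6 members did so at 2 h against 0 h (0.0185% of all genes), 6 h against 0 h (0.0222%), 12 h against 0 h (0.0148%) or 6 h against 2 h (0%). At an unadjusted p under 0.05, 2 members (Mt1a and Mt2A) and 988 genes differed at 2 h, 1 member (Mt2A) and 742 genes at 6 h, 0 members and 1415 genes at 12 h, and 0 members and 745 genes between 6 h and 2 h. The median log2 difference of the 6 members at 2 h was 0.34, against 0.02 over all genes. On simulated data, with independent arrays and no slide effect, the 2 h contrast recovered 44% of log2 changes of 1 and left the rest uncalled.

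At matched times, Mt2A was higher after 3000 than after 1000 ppm CO by 0.70 at 2 h and 0.64 at 6 h, by 0.26 at 12 h, and lower by a difference of -0.05 at 0 h. For Mt1a the same differences were 0.65, 0.84, -0.09 and 0.18. The 3000 and 1000 ppm CO arrays lay on slides 1 and 2 at 0, 2 and 6 h and on slides 3 and 2 at 12 h. Dose and slide cannot be told apart in these differences, each of which sets 1 rat against 1. Between 3000 ppm CO and 5% O2 the Mt2A levels differed by -0.25, 0.00 and 0.06 at 0, 2 and 6 h. In the model the 2 doses of CO differed by 0.39 ± 0.14 for Mt2A (adjusted p = 0.186) and 0.39 ± 0.17 for Mt1a, and 1000 ppm CO differed from 5% O2 by -0.47 ± 0.16 for Mt2A (adjusted p = 0.308).

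None of the 6 members passed in the contrast of 3000 with 1000 ppm CO, where 5.31% of all genes did, or in that of 1000 ppm CO with 5% O2 (0.544%) or of 3000 ppm CO with 5% O2 (0%). Against air, 0 of 6 passed after 1000 ppm CO (0.152%), 3000 ppm CO (0.0074%) or 5% O2 (0.0037%), where the air array was assumed to vary like the others. At an unadjusted p under 0.05 by limma there were 2 members between the CO doses (Mt2A and Tfrc, with 5316 genes), 1 between 1000 ppm CO and 5% O2 (Mt2A, with 3441 genes) and 1 between 1000 ppm CO and air (Tfrc, with 3361 genes). In the contrasts of 3000 ppm CO with 5% O2 (3885 genes), 3000 ppm CO with air (1256 genes) and 5% O2 with air (2054 genes) there were 0 members. With slide as a random block, 0 members passed limma's unadjusted p under 0.05 between the CO doses (297 genes), between 1000 ppm CO and 5% O2 (190 genes) or between 1000 ppm CO and air (366 genes). The time contrasts at 2 and 6 h kept Mt1a and Mt2A, and Mt2A, under that block, and Fth1 was added between 6 h and 2 h.

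**Figure D2:**
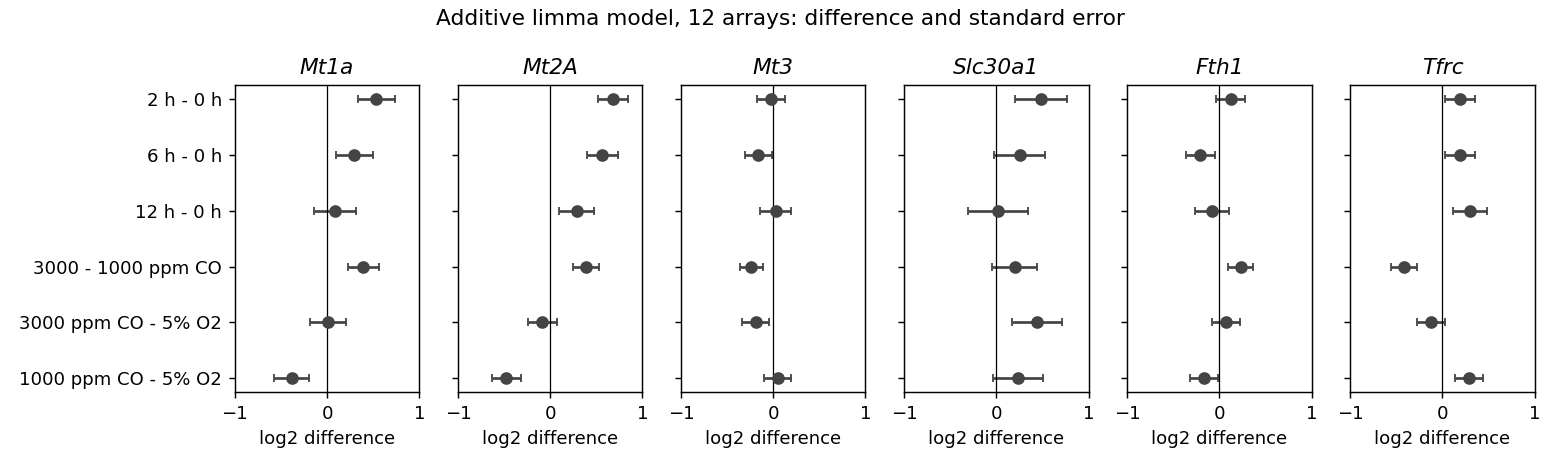
Log2 difference (horizontal axis) of each gene in 6 contrasts of the additive model (vertical axis), with bars for 1 standard error, from 12 arrays. Mt2A lies at 0.68 ± 0.16 for 2 h against 0 h, and no member passed an adjusted p of 0.05.

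Astrocyte markers, of interest because astrocytes are rich in metallothioneins, had median log2 differences from air of 0.13 and 0.16 in the 2 and 6 h arrays of 3000 ppm CO. In the same arrays of 5% O2 they were 0.21 and -0.04, and over all 11 exposed arrays they lay between -0.17 and 0.24. At 2 h after 3000 ppm CO, 8 of 11 astrocyte markers lay above air, and 6 of 11 at 2 h after 5% O2. Microglial markers had medians of 0.20 and 0.37 in those arrays of 3000 ppm CO and 0.22 and 0.01 in those of 5% O2, with 10 of 10 above air at 6 h after 3000 ppm CO. Markers of endothelium and pericytes had medians of 0.08 and 0.43 for 3000 ppm CO, with 8 and 11 of 12 above air. For 5% O2 their medians were -0.41 and -0.01, with 4 and 6 of 12 above air. Blood cell markers had medians of 0.80 and 2.54 for 3000 ppm CO and of 0.89 and -0.20 for 5% O2 in these arrays. Oligodendrocyte markers had medians of -0.37 and -0.23 for 3000 ppm CO, with 9 of 10 and 10 of 10 below air, and of 0.64 and 0.29 for 5% O2, with 10 of 10 and 8 of 10 above air. In the 0 h array of 3000 ppm CO, 9 of 10 lay above air, with a median of 0.41. Markers of septal, thalamic and other subcortical neurons had medians of -2.43 and -2.70 for 3000 ppm CO at 2 and 6 h, with 7 of 8 below air in each, beside -0.06 and 5 of 8 below at 0 h. For 5% O2 their medians were 1.53, 0.00 and -0.52 at 0, 2 and 6 h, with 1, 4 and 8 of 8 below air. The step of Mt2A and Mt1a from 0 to 2 h in 3000 ppm CO thus came with lower medians of both lists. That in 5% O2 came with a lower subcortical median and an oligodendrocyte median of 0.64 at 2 h beside 0.44 at 0 h. Over the same 5% O2 step the median of medium spiny neuron markers went from -3.19 to 0.08. Medians of choroid plexus and ependyma markers went from -2.23 to -0.58 and those of blood cell markers from 0.03 to 0.89. For 3000 ppm CO these 3 medians went from 0.18 to 0.62, from -3.56 to -4.70 and from 0.53 to 0.80. The part of the dissected cells in the metallothionein levels was not tested.

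Mt3 (A_44_P1008888, chr19:11284638-11284697, minus strand, build rn4), the brain form, followed another course than Mt1a and Mt2A. It read 5.98 in air. With 3000 ppm CO it was 5.99, 6.03, 5.96 and 6.21 at 0, 2, 6 and 12 h, and with 5% O2 it was 6.44, 6.30 and 5.91 at 0, 2 and 6 h. With 1000 ppm CO it was 6.26, 6.28, 6.34 and 6.25. The 4 arrays of slide 1 spanned 5.96 to 6.03 and the 4 of slide 2 spanned 6.25 to 6.34, without overlap. How many of all genes separate these slides in the same way was not counted, so this is not a trait particular to Mt3. With normexp background correction the 2 slides no longer separated, through 1000 ppm CO at 6 h alone. There its log2 difference from air was -0.14, beside 0.21, 0.21 and 0.22 in 1000 ppm CO at 0, 2 and 12 h. Slide 1 ran from -0.03 to 0.04. Over the 12 arrays Mt3 ranged over 0.53 log2 units, and 19.9% of 23259 genes well above background on all arrays had a smaller range. The same share was 58.0% for Mt1a, with a range of 0.94, and 74.3% for Mt2A, with a range of 1.22. The Pearson correlation of the levels over the 12 arrays was 0.90 between Mt1a and Mt2A, -0.23 between Mt1a and Mt3, and -0.19 between Mt2A and Mt3, a description of arrays that share slides and conditions.

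**Figure D3:**
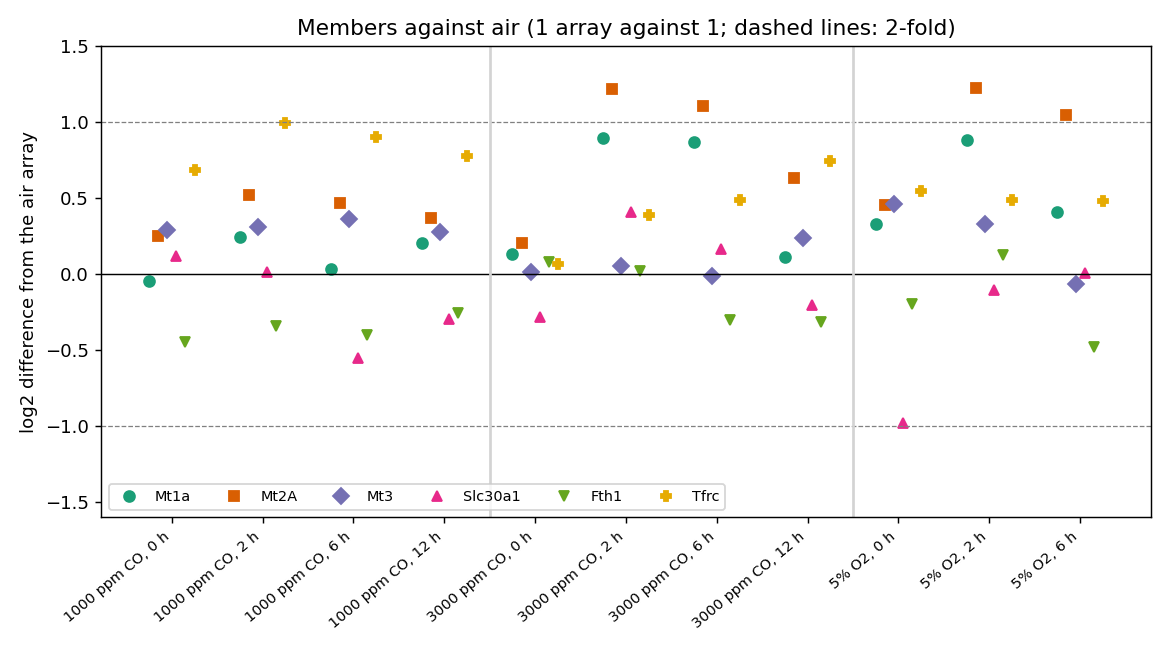
Log2 difference of each of the 6 genes from the air array (vertical axis) in the 11 exposed arrays (horizontal axis), 1 array against 1, with dashed lines at 2-fold. The points beyond 2-fold are the 4 of Mt2A at 2 and 6 h after 3000 ppm CO and 5% O2, and Tfrc after 1000 ppm CO at 2 h lies just inside at 0.99.

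Slc30a1, the zinc exporter (A_44_P529562, chr13:107983689-107983748, plus strand, build rn4), read -0.31 in air and 0.10, its highest level, at 2 h after 3000 ppm CO. The other levels after 3000 ppm CO were -0.59, -0.14 and -0.51 at 0, 6 and 12 h. After 1000 ppm CO it read -0.19, -0.29, -0.86 and -0.60 at 0, 2, 6 and 12 h, and after 5% O2 -1.29, -0.41 and -0.30 at 0, 2 and 6 h. Its lowest levels were those in 5% O2 at 0 h, 1.98-fold below air, and in 1000 ppm CO at 6 h, 1.47-fold below air. With normexp correction the first remained the lowest, but the log2 difference from air in 1000 ppm CO at 6 h was -0.27, beside -0.31 in 1000 ppm CO at 12 h and -0.28 in 3000 ppm CO at 0 h. These are the 2 arrays in which all 14 medium spiny neuron markers lay below air, and the same 2 hold the highest Mt3 levels, although with normexp background correction Mt3 in 1000 ppm CO at 6 h lay below air by a log2 difference of -0.14. The part of the dissected cells in either level was not tested.

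Slc30a1 at 2 h exceeded 0 h by 0.69 after 3000 ppm CO and 0.88 after 5% O2 and differed by -0.11 after 1000 ppm CO. In the model the difference was 0.49 ± 0.28, with a residual SD of 0.343 against 0.200 for Mt2A. Without the 2 arrays low in those markers it was 0.27 ± 0.21, and that of Mt2A stayed at 0.68 ± 0.20. The range of Slc30a1 over the arrays was 1.39 log2 units, above that of 80.9% of genes.

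**Figure D4:**
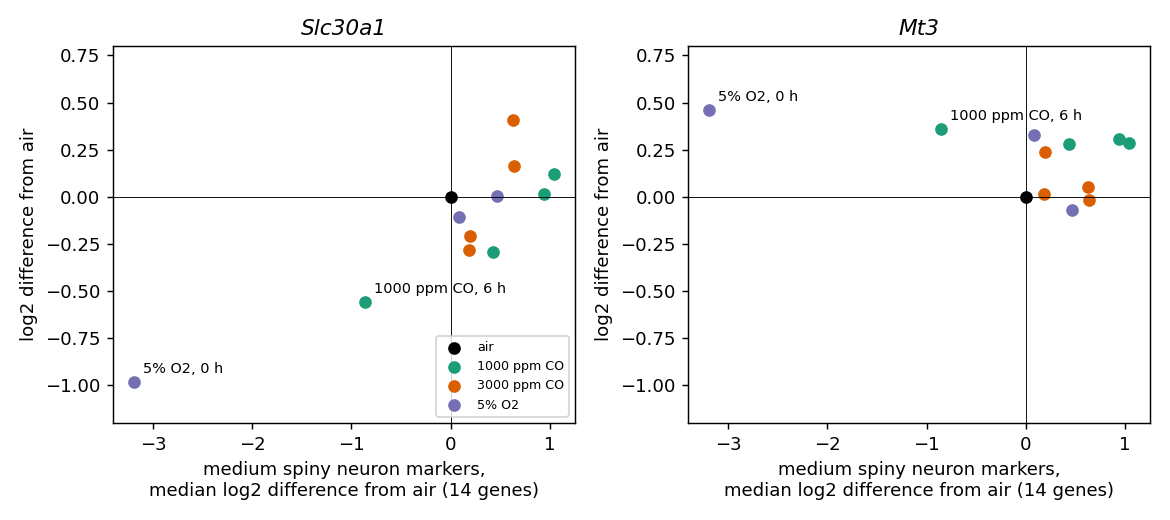
Log2 difference from air of Slc30a1 (left) and Mt3 (right) on the vertical axes against the median log2 difference from air of 14 medium spiny neuron markers (horizontal axes), 1 array per point. The arrays of 5% O2 at 0 h and 1000 ppm CO at 6 h have the lowest marker medians (-3.19 and -0.86), and, with this scaling, the lowest Slc30a1 and the highest Mt3; with normexp correction 1000 ppm CO at 6 h holds neither place.

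Fth1, the ferritin heavy chain, had 2 probes of nearly the same sequence, printed here because their likeness bears on what each one reads. They share 55 bases with 3 mismatches, which are in capitals.
A_44_P292634: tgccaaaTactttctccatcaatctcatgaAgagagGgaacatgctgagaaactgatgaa
A_44_P351546: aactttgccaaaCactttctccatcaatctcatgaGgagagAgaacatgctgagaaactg
The header placed the first at chr1:212431855-212431914 and the second at chr1:24186076-24186135 (both plus strand, build rn4), so one of them is placed away from the other, and cross-hybridization between such copies was not tested. A_44_P292634 read 6.48 in air. The 3000 ppm CO levels were 6.56, 6.50, 6.18 and 6.17 at 0, 2, 6 and 12 h, and the 5% O2 levels 6.29, 6.61 and 6.00 at 0, 2 and 6 h. In rats given 1000 ppm CO it was 6.04, 6.14, 6.08 and 6.23, below air in 4 of 4 arrays. A_44_P351546 read 5.82 in air and had the same course, with a Pearson correlation of 0.98 between the probes over the 12 arrays.

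Fth1 was lower at 6 h than at 2 h by -0.33 ± 0.16 in the model (log2 difference ± SE), with within-exposure levels of 6.50 and 6.18 after 3000 ppm CO, 6.61 and 6.00 after 5% O2 and 6.14 and 6.08 after 1000 ppm CO. This did not pass the threshold. Its range of 0.61 log2 units exceeded that of 27.6% of genes.

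Tfrc, the transferrin receptor, had 3 probes, and they disagreed. The brightest, A_44_P214811 (chr11:69976628-69976687, minus strand, build rn4), read 1.5 in air and 2.18, 2.49, 2.40 and 2.27 at 0, 2, 6 and 12 h after 1000 ppm CO. After 3000 ppm CO it read 1.56, 1.89, 1.99 and 2.24, and after 5% O2 2.04, 1.99 and 1.98. Air was the lowest array and the levels of 1000 ppm CO were all above those of the other exposures but for 3000 ppm CO at 12 h, which lay above 1000 ppm CO at 0 h. At 2 h after 1000 ppm CO this probe was 1.99-fold above air.

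A_43_P15662 (chr11:69977361-69977420, build rn4), printed at 10 spots per array with an SD between spots of 0.083 to 0.177, read -2.71 in air. The levels of 1000 ppm CO were -2.10, -1.92, -1.99 and -2.09 and those of 3000 ppm CO -2.53, -2.25, -2.17 and -2.21, at 0, 2, 6 and 12 h. For 5% O2 they were -2.41, -2.50 and -2.60 at 0, 2 and 6 h. It too lay above air in 11 of 11 arrays. A_44_P313767, whose 60 bases span chr11:69978846-69980500 in the header and so are not contiguous in the genome, read -1.84 in air and below it in 11 of 11 arrays, down to -2.97 at 12 h after 3000 ppm CO. The correlation over the 12 arrays was 0.85 between the first and second probes and -0.62 between the first and this one.

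By the brightest probe Tfrc was higher after 1000 ppm CO than in air by 0.67 ± 0.24 (adjusted p = 0.325 by limma) and lower after 3000 than after 1000 ppm CO by a log2 difference of -0.42 ± 0.14 (adjusted p = 0.151). With the mean over the 3 probes these were 0.20 ± 0.19 and -0.18 ± 0.11. On its own A_44_P313767 differed from air by -0.69 ± 0.22 after 1000 ppm CO, opposite in sign to the others. A direction for Tfrc therefore depends on the probe. By slide, the brightest probe spanned 1.5 to 1.99 on slide 1, 2.18 to 2.49 on slide 2 and 1.98 to 2.24 on slide 3. The range of slide 3 overlapped both others. Slide 2 held 1000 ppm CO alone, so its levels cannot be assigned to slide or exposure.

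**Figure D5:**
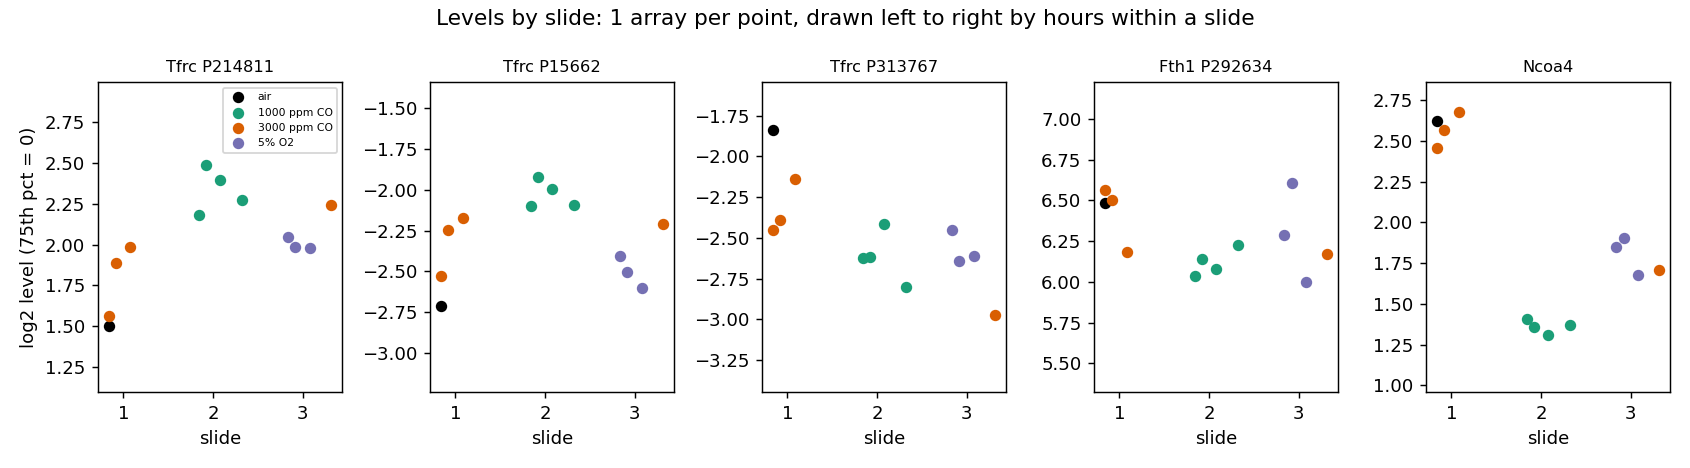
Log2 levels (vertical axes) of the 3 Tfrc probes, the brightest Fth1 probe and Ncoa4 by slide (horizontal axes), 1 array per point, coloured by exposure. Ncoa4 lies between 2.46 and 2.68 on slide 1, 1.31 and 1.41 on slide 2, and 1.67 and 1.90 on slide 3.

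The wider pathways were counted over lists of zinc, iron and copper genes. Of the zinc and metallothionein list, 22 of 29 genes were tested, and 0 passed in any of the 10 contrasts by limma, with 0 to 5 at an unadjusted p under 0.05 in each. The 5 were in the contrast of 3000 with 1000 ppm CO, 22.7% of the list beside 19.7% of all genes. The median log2 difference of this list at 2 h against 0 h was -0.03 against 0.02 over all genes. The zinc genes of largest range over the arrays were Slc39a9, a zinc transporter of the ZIP family, Slc30a1 and Mt2A. Slc39a9 read -1.51 in air and between -2.91 and -1.53 in the exposed arrays.

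Of the iron list, 27 of 29 genes were tested and 1 passed in 1 contrast, that of 3000 with 1000 ppm CO. This is 3.70% of the list, below the 5.31% of all genes that passed there. Ncoa4, the receptor that delivers ferritin to autophagy for iron release, was higher after 3000 than after 1000 ppm CO by 0.99 ± 0.17 (adjusted p = 0.0243 by limma). It read 2.62 in air. The 3000 ppm CO levels were 2.46, 2.56, 2.68 and 1.71 at 0, 2, 6 and 12 h, the 1000 ppm CO levels 1.41, 1.36, 1.31 and 1.37, and the 5% O2 levels 1.85, 1.90 and 1.67 at 0, 2 and 6 h. The 12 h array of 3000 ppm CO, on slide 3, lay with the 5% O2 arrays of that slide and apart from the other 3000 ppm CO arrays on slide 1. With slide as a random block the adjusted p was 1.00 and the difference 0.82, so the call ended, and it also ended in 10 of the other 21 alternatives, 8 of which leave out 1 array. Those arrays were the 0, 2 and 6 h arrays of either CO dose and the 0 and 2 h arrays of 5% O2.

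Of the copper list, 11 of 12 genes were tested and 0 passed in any contrast, with 0 to 2 at an unadjusted p under 0.05 in each. Its widest ranges were those of Atp7a, the copper pump, Slc31a1, the copper importer CTR1, and its relative Slc31a2. Slc31a1 read 0.56 in air, its highest level, and between -1.38 and 0.15 in the exposed arrays. Its lowest levels, -1.36 and -1.38, were at 0 and 2 h after 1000 ppm CO. In those arrays the 11 markers of choroid plexus and ependyma had medians of -6.40 and -5.17 against air. In 5% O2 at 2 and 6 h the choroid medians were -0.58 and -0.48, with Slc31a1 at -0.15 and 0.15. At 12 h the choroid median was -5.50 in 3000 ppm CO, with Slc31a1 at -0.93. In 1000 ppm CO at 12 h it was -1.76, with Slc31a1 at -1.01. The part of that tissue was not tested.

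The genes whose levels followed each member most closely over the 12 arrays were listed among 12101 genes with a symbol that were well above background throughout. For Mt1a they were Ms4a6bl1 (Pearson r = 0.94), Mix23 (0.93), Il17re (0.92), Fn1 (0.91) and Mt2A (0.90). For Mt2A they were Cep15 (0.93), Mt1a (0.90), Ms4a6bl1 (0.86), the chemokine Ccl3 (0.85) and Mfap5 (0.83). Mt1a and Mt2A thus ranked among the 5 nearest of each other. Mt3 was most like Gnai2 (0.93), Slc30a1 most like Chmp3 (0.98), Fth1 most like the co-chaperone Bag3 (0.93) and Tfrc most like Wnk2 (0.98). With 12 arrays that share slides and so many candidates these values describe the arrays and carry no test.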

How the data were processed

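Total RNA from both striata of each of 12 rats was measured on 1-colour Agilent whole rat genome arrays. Per the file headers, the authors read the scans with Agilent Feature Extraction 10.7.3.1. Its processed signal, per the file headers, is an intensity after background subtraction, unscaled between arrays. Probe positions in the headers are on build rn4. The deposited series table holds log2 values centred on each array's median (median 0 in each column), with a correlation of at least 0.9999 with the log2 processed signal. Its use was limited to an alternative. Other deposited columns were spot flags.

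Levels are log2 processed signal less the 75th percentile of the array. Outlying spots were left out, spots of a probe averaged, and 14 of 41012 probes dropped. Names came from the files and from a RefSeq table (GRCr8), which named 21323 probes, and Mt1a is Mt1 there. A gene was its brightest probe. Differences from air used 29396 genes well above background on at least 1 array, with no p-value and 2-fold as the threshold. The model used 27042 genes well above background on at least 3 arrays. limma 3.58.1 (R 4.3.3) was fitted with exposure and time as additive factors (5 residual degrees of freedom, prior 2.16), two-sided, with Benjamini-Hochberg adjustment at 0.05. P-values rest on the residual spread between single arrays, including any interaction of exposure with time. Slide was not in this model, and the slide of 1000 ppm CO held no other exposure. Its difference from the other slides thus lies in the contrasts with 1000 ppm CO and not in their SE or p-values. The number of arrays limits the precision. On simulated data with 27042 genes, the contrast of 3000 with 1000 ppm CO recovered 58% of log2 changes of 1 and 79% of changes of 2. The simulated arrays were independent and had no slide effect, unlike the data, where the correlation within slides was 0.814. These rates therefore do not describe recovery in the presence of slide differences. Python 3.11.15, numpy 2.4.6, pandas 2.3.3 and matplotlib 3.10.9 prepared tables and figures.

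The members and gene lists were chosen with earlier results of these data known. Named genes were the members, any listed gene past the threshold or otherwise the 3 of largest range in a list, and the 5 genes most like each member. Alternatives were normexp (offset 50), quantile normalization, the series table, each probe alone or their mean, no or a stricter filter, a trended robust prior, slide as a fixed factor or random block, leaving out the 2 arrays low in neuron markers, the 12 h arrays, the air array or each array, and folds of 1.5 and 3.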

Additional observations from a re-analysis of the deposited data

How the results depend on the processing

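No paired analysis was possible because each condition had 1 rat and the labels carry no replicate numbers. None of the 6 members passed the adjusted threshold in any contrast under any alternative that could be fitted. With slide as a fixed factor, contrasts with 1000 ppm CO could not be estimated. The number of member and array pairs away from air, 4 at 2-fold, was 14 at 1.5-fold and 0 at 3-fold, and at 2-fold it was 3 with normexp, 4 with quantile normalization and 6 with the series table. Mt2A at 2 h against 0 h was 0.66 to 0.68 under the other settings and 0.55 to 0.85 on leaving out each array, and at 6 h 0.44 to 0.64 and 0.43 to 0.73. The normexp correction moved the median of all genes by 0.23 for 1000 ppm CO against air, where Tfrc was 0.53. Under it Mt1a lay above air in 9 of 11 arrays and Mt3 in 7. Mt1a at 0 h after 1000 ppm CO changed from -0.05 to 0.05 with the series table. Counts of all genes moved widely: for 3000 against 1000 ppm CO, 1437 became 0 with slide as a random block (correlation within slides 0.814), 21 with normexp, 672 without the 2 arrays low in neuron markers and 2314 without the 12 h arrays, and 200 to 2314 on leaving out each array. For 1000 ppm CO against 5% O2, 147 became 0 to 153 and, on leaving out each array, 0 to 1794, the highest without 1000 ppm CO at 6 h. For 1000 ppm CO against air, 41 became 0 to 234, for 3000 ppm CO against air 2 became 0 to 54, for 5% O2 against air 1 became 0 to 73, and for 3000 ppm CO against 5% O2 0 became 0 to 113. The time contrasts held 0 to 8 genes throughout.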
